A study of Homo sapiens with 6 samples.

Results

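Eukaryotic translation initiation factors are the proteins that bring the ribosome, the initiator tRNA and an mRNA together at the start codon. Their transcripts were taken from an RNA-sequencing count table as the rows whose symbol begins with EIF1 to EIF6, without the binding-protein genes EIF4EBP1 and EIF4EBP2 and with the readthrough row SENP3-EIF4A1, which gave 55 of 19610 gene rows. The cells were SH-SY5Y, an established human neuroblastoma line with a wild-type genotype in the labels. The series holds 3 libraries, A, B and C, from cells given SGC707, which blocks the arginine methyltransferase PRMT3, and 3 more with the same letters from cells given the solvent DMSO. The labels give neither the dose nor the duration, nor where the replicates came from, so each p-value here reflects library-to-library spread alone, possibly technical.

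In initiation, eIF2 carries the initiator tRNA to the small ribosomal subunit, eIF1, eIF1A and eIF3 hold that subunit open for scanning, and the cap-binding eIF4E, the scaffold eIF4G and the helicase eIF4A load it on the mRNA. eIF5 and eIF5B then complete start-codon recognition and subunit joining. Phosphorylation of eIF2 by its stress kinases blocks the exchange factor eIF2B and lowers initiation in general, and PRMT3 itself is known for methylating a protein of the small ribosomal subunit.

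The libraries differed in ways that bear on every value below. Total counts were 11658728 to 12127187 in SGC707 libraries and 11863696 to 15437602 in DMSO libraries, and mitochondrially encoded transcripts took 24.3% to 37.7% of them with SGC707 and 46.7% to 60.7% with DMSO. SGC707 C stood apart from SGC707 A and B in a trend with the GC content of transcripts. Deviations were taken in each library from the gene's mean over all 6 libraries. Their Spearman correlation with GC content across genes was -0.76 in SGC707 C but 0.52 in SGC707 A and 0.34 in SGC707 B. In DMSO A, B and C this correlation was 0.23, 0.17 and -0.12. Because the mean is shared, a trend in 1 library also shifts the values of the others. Fold changes of named rows are therefore given also without SGC707 C where leaving it out changed a call or moved the value by over 1.5 times. Of 12 adrenergic and neuronal markers 11 were detected well enough to be tested, with a summed level of 4754 to 5406 normalised CPM, counts per library scaled to a common total, with SGC707 and 5942 to 7458 with DMSO, while TH, the enzyme gene of catecholamine synthesis, stood at 0 counts in all 6 libraries. In the Schwann-like, mesenchymal, epithelial and blood marker lists, SOX10, KRT5 and PTPRC stood at 0, and none of the 4 lists summed to more than 12.2 CPM in any library. Whether the mitochondrial share, GC content or the marker levels take part in the differences below was not tested, except where a fit without the mitochondrial genes or with a GC correction is named.

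Many mRNAs of the translation machinery begin with a cytidine followed by a run of pyrimidines, the terminal oligopyrimidine (TOP) motif, which places their translation under control of mTORC1 and LARP1. The start windows are shown because they set apart members that share this feature. Of the 55 rows, 47 had an annotated start in the RefSeq table (GRCh38.p14), and 10 of these, or 21.3%, had a C at the annotated start followed by at least 4 bases that are C or T. Among all 27305 genes with a start window the share was 5.14%. Each line gives 10 bases before and 20 from the start, on the gene's strand, with the C and its pyrimidine run in capitals.

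EIF2A, chr3:150546777-150546806, plus strand: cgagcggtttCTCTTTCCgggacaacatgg

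EIF2D, chr1:206612446-206612475, minus strand: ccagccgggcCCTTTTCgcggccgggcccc

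EIF2S3, chrX:24054946-24054975, plus strand: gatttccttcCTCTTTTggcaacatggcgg

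EIF2S3B, chr12:10505880-10505909, plus strand: gactttcttcCTCTTTTggcaacatggcgg

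EIF3D, chr22:36529147-36529176, minus strand: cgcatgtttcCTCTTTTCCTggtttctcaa

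EIF3F, chr11:7987327-7987356, plus strand: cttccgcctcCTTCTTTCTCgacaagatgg

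EIF3K, chr19:38619178-38619207, plus strand: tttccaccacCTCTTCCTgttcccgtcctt

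EIF3M, chr11:32583821-32583850, plus strand: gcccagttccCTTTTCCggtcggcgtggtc

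EIF4A2, chr3:186783567-186783596, plus strand: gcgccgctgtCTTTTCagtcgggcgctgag

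EIF4B, chr12:53006446-53006475, plus strand: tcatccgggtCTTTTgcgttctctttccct

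These 10 rows did not share a direction. Their median log2 fold change with SGC707 was 0.13, with 6 positive, against -0.02 in the 34 other tested rows with a start window, of which 17 were positive. Without SGC707 C the medians were -0.03 and -0.16. A match describes the letters at an annotated start and says nothing of whether a factor acts there.

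Normalised levels overlapped between the 2 groups in most initiation factor rows, and no row passed the test over all genes. Of the 55 rows, 52 passed the filter on low counts: 24 had positive and 28 negative log2 fold changes. The median was -0.05, against 0.02 over all 12196 tested genes. At an edgeR adjusted p under 0.05 the count was 0 higher and 0 lower rows, where 0.0246% of all tested genes passed (0.0082% higher and 0.0164% lower). At an unadjusted edgeR p under 0.05 there were 5 higher and 6 lower rows, or 21.2% of those tested, against 12.8% of all tested genes (5.62% higher and 7.13% lower). The groups did not overlap in 16 rows, 9 with SGC707 above DMSO and 7 with SGC707 below it. This is 30.8% of the rows, against 20.6% of all tested genes (10.8% above and 9.78% below). The median turned positive without SGC707 A (0.03). It was negative with each of the other libraries left out, and lowest without SGC707 C (-0.16).

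Without SGC707 C, the edgeR test with Benjamini-Hochberg adjustment called 14 rows, 5 higher and 9 lower, or 26.9% of the 52, where it called 9.26% of all tested genes (3.73% higher and 5.53% lower). Leaving out any other single library called 0 rows. The higher rows were EIF2D, EIF3K, EIF4E2, EIF4H and SENP3-EIF4A1. The lower rows were EIF1AD, EIF2A, EIF2S2, EIF3A, EIF3CL, EIF3H, EIF4G3, EIF5 and EIF5B. Windows of 100 bases shared with other annotated genes made up 14.8% of the longest EIF2S2 transcript, 6.7% for EIF4H and 0.154% for EIF5. Of the called rows, EIF3CL shares most of its sequence with EIF3C, and SENP3-EIF4A1 shares sequence with EIF4A1. Neither of these 2 sums was called without SGC707 C. EIF3C summed with EIF3CL gave -0.40 (adjusted p = 0.0593 by edgeR), and EIF4A1 summed with SENP3-EIF4A1 gave 0.26 (adjusted p = 0.373 by edgeR). With the GC and length correction added, 10 rows were called without SGC707 C, 5 in each direction, where 7.5% of all tested genes were called. The higher ones were EIF1AX, EIF3K, EIF4E2, EIF4H and SENP3-EIF4A1, and the lower ones EIF1AD, EIF3A, EIF3CL, EIF3D and EIF5B. EIF1AX and EIF3D were not among the 14 rows, and EIF2A, EIF2D, EIF2S2, EIF3H, EIF4G3 and EIF5 lost their call. On all libraries 1 row, EIF1AD, was called with that correction, which called 0.508% of all tested genes, and with DESeq2, which called 2.39% of them. On the same libraries limma-voom with library weights called 24 rows, or 46.2%, against 28.3% of all tested genes. Scaling by library totals alone called 18 rows, or 34.6%, against 21.4%.

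**Figure D1:**
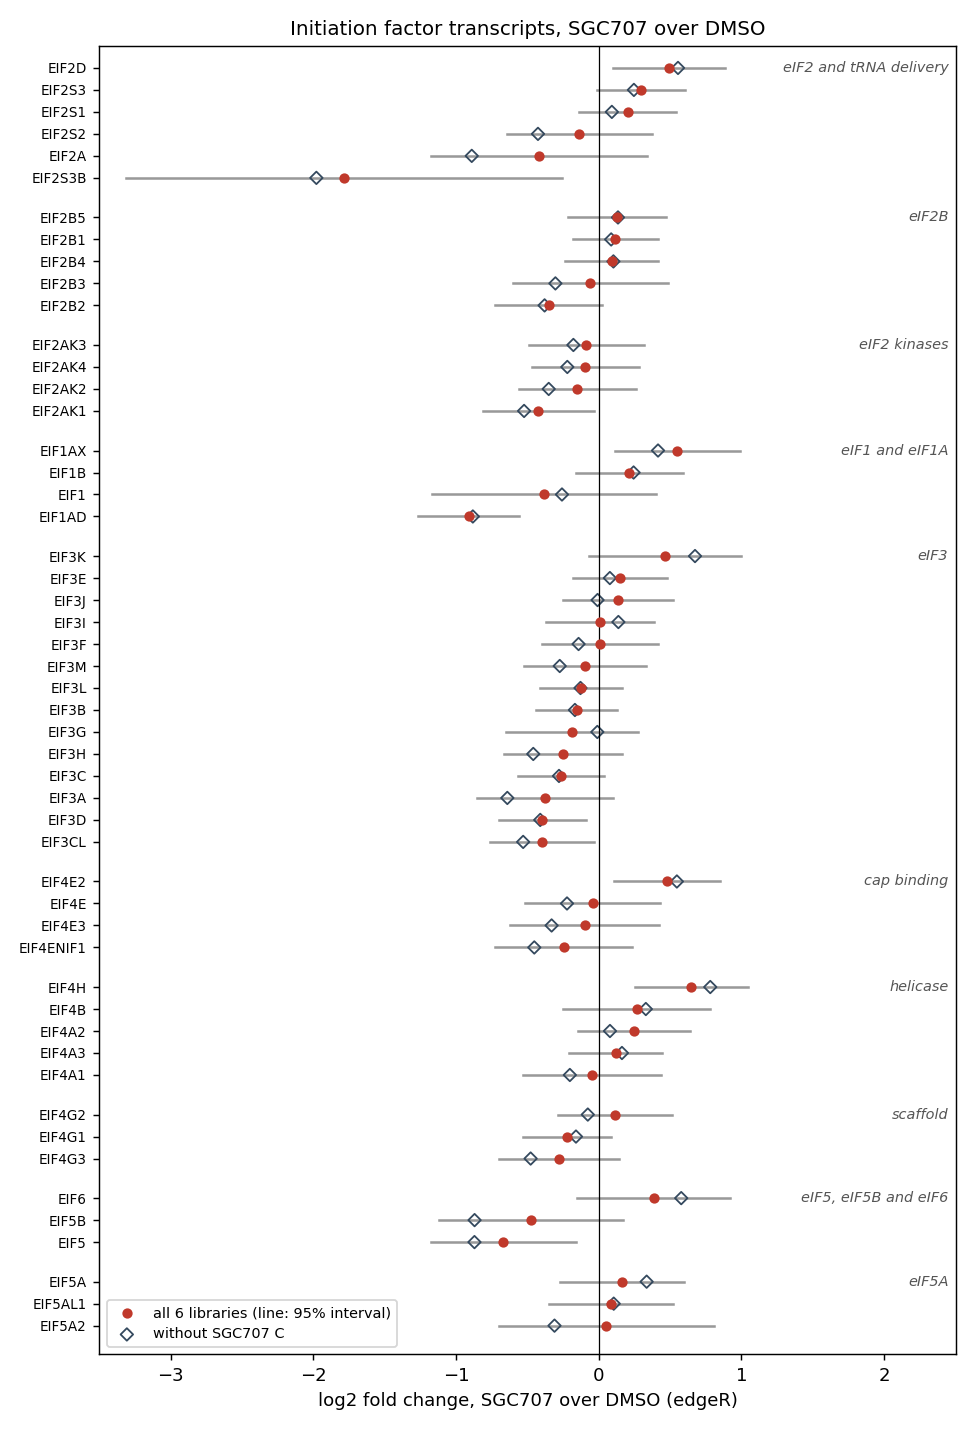
Log2 fold changes of 51 initiation factor rows (SGC707 over DMSO, horizontal axis) by role, from all 6 libraries (red points with 95% intervals) and without SGC707 C (open diamonds). SENP3-EIF4A1, at 6.24 with an interval from 2.26 to 10.2, lies off the axis and is not drawn. EIF1AD stands lowest among rows with narrow intervals, and EIF2A, EIF5B and EIF3A move farther below 0 without SGC707 C.

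The eIF2 complex delivers the initiator tRNA. EIF2S3 (GRCh38 chromosome X, 24054716 to 24077971), which encodes the GTP-binding gamma subunit, stood at 227, 243 and 257 normalised CPM in SGC707 A, B and C, against 193, 184 and 216 in DMSO A, B and C. All SGC707 values lay above all DMSO values, with a log2 fold change of 0.30 (SE 0.13, adjusted p = 0.414 by edgeR). EIF2S3B (chromosome 12, 10505602 to 10523135), a close copy of that gene, stood at 3.75, 0.629 and 3.20 normalised CPM with SGC707 and at 11.7, 10.9 and 3.42 with DMSO. DMSO C lay beside the SGC707 libraries there, and the log2 fold change was -1.78 (SE 0.66, adjusted p = 0.326 by edgeR). The longest EIF2S3 transcript shares 10.04% of its windows of 100 bases with EIF2S3B, so reads can be split between the rows. With both rows summed, the log2 fold change was 0.25 (SE 0.13, adjusted p = 0.475 by edgeR).

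EIF2D (chromosome 1, 206571292 to 206612463) encodes a factor that can place tRNA on the ribosome without GTP and that takes part in recycling after termination. It stood at 27.4, 24.3 and 22.2 normalised CPM with SGC707, against 17.4, 17.99 and 17.3 with DMSO. All 3 SGC707 libraries were above the narrow DMSO range, with a log2 fold change of 0.49 (SE 0.17, adjusted p = 0.308 by edgeR; 0.56 and adjusted p = 0.0454 without SGC707 C). With the GC and length correction added, EIF2D stood at 0.43 without SGC707 C (adjusted p = 0.0700 by edgeR). The alpha subunit gene EIF2S1, the target of the eIF2 kinases, had a log2 fold change of 0.20 (adjusted p = 0.596 by edgeR), and of 0.09 without SGC707 C, also with groups that did not overlap. The beta subunit gene EIF2S2 (-0.14) and the gene of the alternative tRNA carrier EIF2A (-0.42) had overlapping groups. Without SGC707 C they stood at -0.43 (adjusted p = 0.0465 by edgeR) and -0.89 (adjusted p = 0.0386 by edgeR). Neither was called without SGC707 C once the GC and length correction was added. In SGC707 A, B and C EIF2A stood at 79.0, 85.6 and 178 normalised CPM, against 163, 178 and 115 with DMSO, so SGC707 C lay at the upper end of the DMSO range and the other 2 below it. EIF2S1, EIF2S2 and EIF2A are named here because of their values.

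The exchange factor eIF2B reloads eIF2 with GTP. Its 5 subunit rows had log2 fold changes from -0.35 to 0.13, 3 positive and 2 negative, with edgeR adjusted p from 0.421 to 0.941. EIF2B2 (chromosome 14, 75002911 to 75012366), the beta subunit gene, stood at 26.3, 22.1 and 25.5 normalised CPM with SGC707, all below the 32.5, 33.04 and 28.7 with DMSO (log2 fold change -0.35, SE 0.16). EIF2B1, the alpha subunit gene, stood at 80.5, 79.7 and 84.4 normalised CPM with SGC707 and 78.6, 72.9 and 74.2 with DMSO, without overlap (0.12, SE 0.13). The catalytic epsilon subunit gene EIF2B5 stood at 36.6, 43.8 and 39.4 with SGC707 and 37.8, 35.5 and 36.3 with DMSO, with overlap (0.13, SE 0.15).

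The 4 eIF2 kinase genes had negative log2 fold changes, from -0.42 to -0.09, and each had overlapping groups. With scaling by library totals alone, under which the median over tested genes was 0.69, all 4 were positive, EIF2AK1 at 0.25, EIF2AK2 at 0.50, EIF2AK3 at 0.57 and EIF2AK4 at 0.55. EIF2AK1 (chromosome 7, 6022244 to 6059230) encodes the heme-regulated kinase HRI. It stood at 268, 256 and 317 normalised CPM with SGC707, against 413, 410.2 and 305 with DMSO, so that DMSO C lay below SGC707 C (log2 fold change -0.42, SE 0.17, adjusted p = 0.358 by edgeR). EIF2AK2, which encodes the double-stranded RNA sensor PKR, stood at 129, 129.9 and 186 with SGC707, against 167, 171 and 156 with DMSO (-0.15, SE 0.18, adjusted p = 0.755 by edgeR). EIF2AK4, which encodes the amino acid sensor GCN2, stood at 39.0, 40.4 and 50.3 with SGC707, against 48.3, 42.5 and 47.7 with DMSO (-0.09, SE 0.16, adjusted p = 0.849 by edgeR). SGC707 C was the highest SGC707 library for all 3. EIF2AK3, which encodes the endoplasmic reticulum kinase PERK, had a log2 fold change of -0.09 (adjusted p = 0.872 by edgeR). Without SGC707 C, EIF2AK2 stood at -0.35, EIF2AK4 at -0.22 and EIF2AK3 at -0.18.

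Among the rows with EIF1 symbols, EIF1AD (chromosome 11, 65996545 to 66002176) had the smallest p of all initiation factor rows. It encodes a nuclear protein with an eIF1A-like domain and is counted here by its symbol, not by a known role at the start site. Its level was 33.5, 31.4 and 30.2 normalised CPM in SGC707 A, B and C, against 62.0, 64.8 and 52.3 with DMSO. The 3 SGC707 libraries lay close together and well below all DMSO libraries. The log2 fold change was -0.91 (SE 0.15, 95% interval -1.27 to -0.56, unadjusted p = 3.67e-04, adjusted p = 0.163 by edgeR). Leaving out 1 library moved it between -1.003 and -0.85, and the edgeR adjusted p between 0.0272 without SGC707 C and 0.653 without DMSO B. DESeq2 gave an adjusted p of 4.06e-04, and edgeR gave 0.0453 after the GC and length correction and 0.164 without the mitochondrial genes. With library totals alone, the log2 fold change was -0.22. No window of 100 bases of its longest transcript occurs in another gene's annotated transcripts.

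EIF1AX (chromosome X, 20124518 to 20141844), which encodes the scanning factor eIF1A, stood at 142, 139.8 and 181 normalised CPM with SGC707, all above the 98.3, 88.6 and 129 with DMSO (log2 fold change 0.55, SE 0.19, adjusted p = 0.307 by edgeR). EIF1B, a paralog of EIF1, stood at 30.9, 25.7 and 26.3 normalised CPM with SGC707, also above the 23.7, 24.2 and 23.6 with DMSO (0.21, SE 0.16, adjusted p = 0.608 by edgeR). EIF1, the guardian of start-codon choice, stood at 102, 96.0 and 73.5 with SGC707 and at 82.0, 190.4 and 81.9 with DMSO. One library, DMSO B, stood well above every other there, and the log2 fold change of -0.38 became 0.14 without it. EIF1AY did not pass the filter on low counts.

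**Figure D2:**
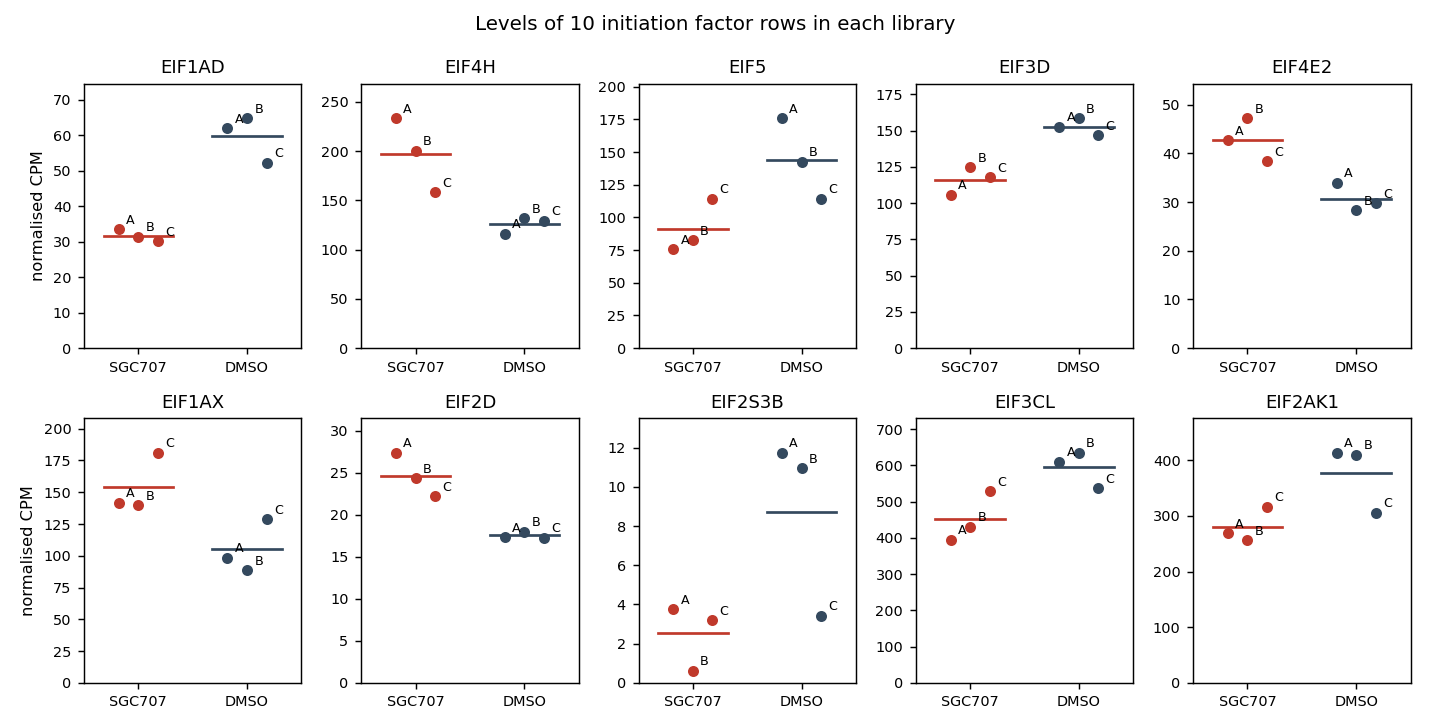
Normalised CPM (vertical axes, from 0) in each SGC707 and DMSO library, lettered A to C, for the 10 initiation factor rows other than SENP3-EIF4A1 with an unadjusted p under 0.05. Lines mark group means. The groups do not overlap for EIF1AD, EIF4H, EIF3D, EIF4E2, EIF1AX, EIF2D and EIF3CL, while in EIF5, EIF2S3B and EIF2AK1 the DMSO C point does not lie above the highest SGC707 point.

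eIF3 is the largest initiation factor, a scaffold of many subunits on the small ribosomal subunit. The table holds 14 eIF3 rows, since EIF3C has the near-identical copy EIF3CL. Of their log2 fold changes 9 were negative and 5 positive, from -0.40 to 0.47, with a median of -0.14 and edgeR adjusted p from 0.303 to 0.992. The groups did not overlap in 4 rows, EIF3B, EIF3C, EIF3CL and EIF3D, each with SGC707 lower, and in no row with SGC707 higher. This is 28.6% of the 14 rows, where 20.6% of all tested genes did not overlap and 9.78% were lower, and EIF3C and EIF3CL share most of their sequence. With library totals alone all 14 eIF3 rows were positive, EIF3A at 0.26, EIF3C at 0.42, EIF3CL at 0.26 and EIF3D at 0.28.

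EIF3D (chromosome 22, 36510850 to 36529436), the subunit that can bind the cap itself, stood at 106, 125 and 118 normalised CPM with SGC707, against 153, 159 and 147 with DMSO. The gap between the groups was wider than the spread within either (log2 fold change -0.39, SE 0.13, adjusted p = 0.303 by edgeR). EIF3C (chromosome 16, 28688558 to 28735730) and EIF3CL (chromosome 16, 28379579 to 28403879) share 95.1% and 97.0% of their windows of 100 bases with each other, so their separate counts are uncertain. Their summed level was 860, 905 and 1006 normalised CPM with SGC707, against 1204, 1238 and 1046 with DMSO. All SGC707 values lay below all DMSO values (summed log2 fold change -0.33, SE 0.14, adjusted p = 0.381 by edgeR). The summed value without SGC707 C was -0.40 (adjusted p = 0.0593 by edgeR). EIF3CL alone stood at -0.40 (adjusted p = 0.356 by edgeR), and at -0.53 without SGC707 C (adjusted p = 0.0341 by edgeR). EIF3A (chromosome 10, 119033670 to 119080823), the largest core subunit, stood at 391, 439.6 and 659 normalised CPM with SGC707, against 662, 673 and 603 with DMSO. SGC707 C lay within the DMSO range and the other 2 far below it, with a log2 fold change of -0.38 (adjusted p = 0.493 by edgeR) and of -0.64 without SGC707 C (adjusted p = 0.0277 by edgeR).

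EIF3K, an outer subunit gene named because of its values, ran the other way. It stood at 79.0, 72.5 and 44.6 normalised CPM with SGC707, against 46.0, 42.8 and 53.1 with DMSO, so SGC707 A and B were above all DMSO libraries and SGC707 C was within their range. Its log2 fold change was 0.47 (adjusted p = 0.452 by edgeR), and 0.67 without SGC707 C (adjusted p = 0.0307 by edgeR).

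Per kilobase of the longest protein-coding transcript, the eIF3 rows differed severalfold in level within each group. EIF3E (154 ± 15.8 with SGC707 and 139.5 ± 11.9 with DMSO, SD, n = 3), EIF3L (138 ± 7.11 and 150.1 ± 6.49) and the 2 EIF3C copies were at the top. EIF3J (29.3 ± 5.07 and 26.7 ± 1.36), EIF3M (27.3 ± 5.75 and 29.2 ± 3.11) and EIF3F (26.6 ± 5.12 and 26.5 ± 2.71) were at the bottom. EIF3E and EIF3CL did not differ from each other or from EIF3C and EIF3L beyond their spread with SGC707, while EIF3C (150.2 ± 2.07) lay above EIF3L there. The rank of either EIF3C copy is uncertain, since their shared reads may be divided between the rows. EIF3L shares 41.2% of its windows of 100 bases with the annotated gene AL022311.1, and EIF3E 11.98% with AC107075.1. The levels of EIF3L and EIF3E are therefore uncertain too. Summed, and not scaled to length, the copies stood at 923 normalised CPM with SGC707 and 1163 with DMSO, against 444 and 483 for EIF3L. EIF3J, EIF3M and EIF3F did not differ beyond their spread in either group. The longest transcripts of EIF3F (7540 bases) and EIF3M (5051 bases) may not be the ones these cells use, and a shorter one would raise their level per kilobase.

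**Figure D3:**
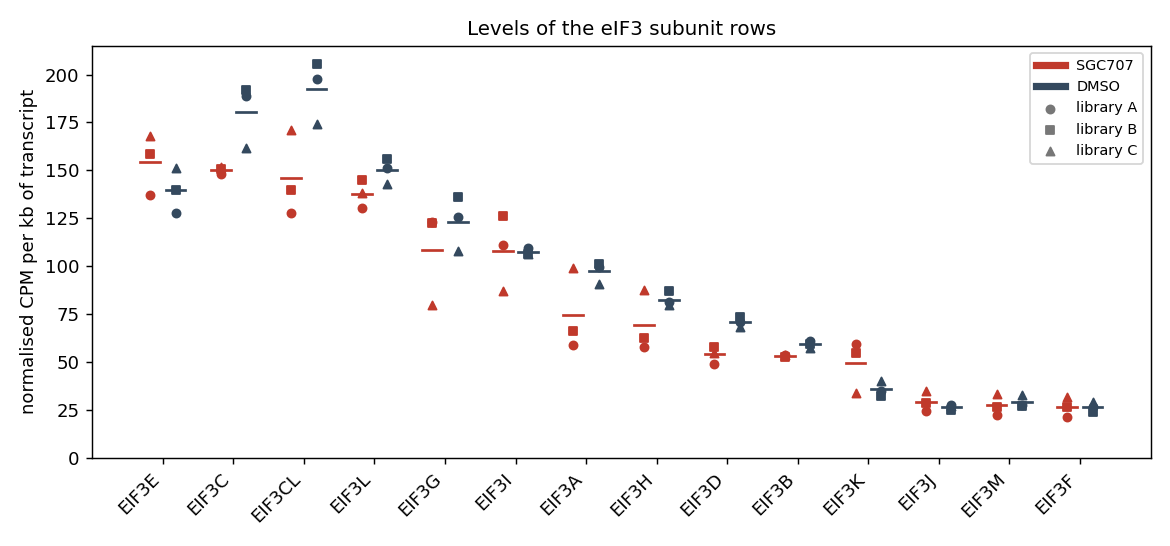
Normalised CPM per kilobase of the longest protein-coding transcript (vertical axis, from 0) of the 14 eIF3 rows, in SGC707 libraries (red) and DMSO libraries (blue), with a line at each group mean. Levels of single rows run from 154 for EIF3E to 26.6 for EIF3F with SGC707, and the groups lie apart in EIF3C, EIF3CL, EIF3D and EIF3B. EIF3C and EIF3CL share most of their sequence, so their separate levels are uncertain.

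Cap-binding proteins gave 1 positive and 3 negative values. EIF4E2 (chromosome 2, 232550052 to 232583644) encodes 4EHP, which binds the cap but not the scaffold eIF4G and represses translation. It stood at 42.7, 47.2 and 38.3 normalised CPM with SGC707, all above the 34.0, 28.4 and 29.7 with DMSO. The log2 fold change was 0.48 (SE 0.16, adjusted p = 0.303 by edgeR), and 0.55 without SGC707 C (adjusted p = 0.0444 by edgeR). EIF4E (chromosome 4, 98871684 to 98930637), the main cap-binding protein gene, stood at 36.4, 39.1 and 52.8 with SGC707 and at 52.6, 39.5 and 39.8 with DMSO (-0.04, SE 0.20). EIF4ENIF1, which encodes the eIF4E transporter 4E-T, stood at 31.5, 33.02 and 46.8 with SGC707, against 45.7, 49.3 and 37.1 with DMSO (-0.25, SE 0.21). EIF4E3 stood at 13.2, 14.5 and 21.0 with SGC707, against 19.0, 16.9 and 16.1 with DMSO (-0.10, SE 0.23). In these 3 rows SGC707 C was the highest SGC707 library and the groups overlapped. Without it EIF4E stood at -0.22, EIF4ENIF1 at -0.45 and EIF4E3 at -0.33. EIF4E1B, an oocyte form, had 0 counts in every library, which allows up to 0.181 to 0.293 normalised CPM by counting error alone.

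EIF4EBP3, the third 4E-binding protein gene, had 1, 2 and 2 counts with SGC707 and 1, 3 and 1 with DMSO and was not tested. Of its windows of 100 bases, 69.4% also lie in the readthrough gene ANKHD1-EIF4EBP3, whose own row had 916 to 1186 counts with SGC707 and 815 to 1025 with DMSO.

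The scaffolds eIF4G join the cap, the helicase and eIF3. EIF4G1 (chromosome 3, 184314495 to 184335358) stood at 313, 337 and 282 normalised CPM with SGC707, all below the 379, 366 and 342 with DMSO (log2 fold change -0.22, SE 0.13, adjusted p = 0.521 by edgeR). EIF4G3 stood at 119, 127 and 177 with SGC707, against 177, 181 and 156 with DMSO (-0.28, SE 0.18, adjusted p = 0.554 by edgeR; -0.48 and adjusted p = 0.0386 without SGC707 C). With the GC and length correction added, EIF4G3 was not called without SGC707 C. EIF4G2, which encodes the cap-independent relative DAP5, stood at 444, 495 and 664 with SGC707 and 484, 483 and 514 with DMSO (0.11, SE 0.17). SGC707 C was the highest SGC707 library for EIF4G3 and EIF4G2 and the lowest for EIF4G1, and without it EIF4G2 stood at -0.08. With library totals alone EIF4G1 (0.46) and EIF4G3 (0.37) were positive.

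Of the 6 rows of the helicase eIF4A and its helpers, 5 had positive log2 fold changes. EIF4H (chromosome 7, 74174245 to 74197101), which encodes an RNA-binding stimulator of eIF4A, stood at 233, 200.3 and 158 normalised CPM with SGC707, against 116, 132 and 129 with DMSO. All SGC707 libraries lay above all DMSO libraries, SGC707 C nearest to them. The log2 fold change was 0.65 (SE 0.17, 95% interval 0.25 to 1.05, adjusted p = 0.244 by edgeR), and 0.78 without SGC707 C (adjusted p = 0.0272 by edgeR). EIF4B, the other RNA-binding helper, stood at 385, 209 and 256 with SGC707, against 244, 224 and 239 with DMSO. SGC707 A alone was high there: the log2 fold change of 0.27 (SE 0.22) became -0.02 without it. EIF4A2 (chromosome 3, 186783205 to 186789900) stood at 180.4, 204 and 262 with SGC707, against 175, 171 and 197 with DMSO (0.25, SE 0.17, adjusted p = 0.579 by edgeR, and 0.08 without SGC707 C). EIF4A3, the helicase of the exon junction complex, had a log2 fold change of 0.12 (adjusted p = 0.756 by edgeR).

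The readthrough row SENP3-EIF4A1 had the highest fitted log2 fold change of all 12196 tested genes, and it rested on 2 libraries. It had 897, 869 and 4 counts in SGC707 A, B and C, against 15, 0 and 0 with DMSO, in the same order. Thus SGC707 C lay with the DMSO libraries, and the groups overlapped. The fitted log2 fold change was 6.24 (SE 1.72, adjusted p = 0.262 by edgeR), a value that depends on how counts of 0 are treated, 6.82 without SGC707 C (adjusted p = 0.0320 by edgeR) and 11.92 without DMSO A. Counts of this row over its sum with EIF4A1 came to 30.5% (95% Wilson interval 28.9% to 32.2%), 25.0% (23.6% to 26.5%) and 0.163% (0.0632% to 0.417%) in SGC707 A, B and C. The shares with DMSO were, in the same order, 0.756% (0.459% to 1.24%), 0% (up to 0.286%) and 0% (up to 0.196%). These intervals cover counting error only.

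In GENCODE release 29 the SENP3-EIF4A1 transcript runs on the plus strand of GRCh38 chromosome 17 from 7563287 to 7578715 in 21 exons, is classed as a target of nonsense-mediated decay, and joins exon 10, in the SUMO protease gene SENP3, to exon 11, which begins 422 bases before the annotated start of EIF4A1. The 30 bases across that junction are shown because reads over them would tell the readthrough transcript from its parts. Capitals mark exon 11.

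SENP3-EIF4A1 junction: ctgcaaactcactgtCCAGGGGAATCCTCC

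Of the windows of 100 bases in this transcript, 84.8% also occur in other annotated genes, 43.5% in EIF4A1, 41.3% in SENP3 and 32.2% in AC016876.2. Of the EIF4A1 windows 100% occur in other annotated genes, 83.95% in AC016876.2 and 82.5% in SENP3-EIF4A1. How reads were divided between these genes is not stated in the labels, so the EIF4A1 count is uncertain. For the same reason a count on the SENP3-EIF4A1 row does not show by itself that the joined transcript was present. EIF4A1 (chromosome 17, 7572706 to 7579005), the main helicase gene, had 2041, 2609 and 2457 counts with SGC707 and 1970, 1338 and 1957 with DMSO. SENP3 had 961, 421 and 411 counts with SGC707 and 445, 391 and 471 with DMSO, and only SGC707 A stood high. EIF4A1 alone had a log2 fold change of -0.05 (SE 0.21; -0.20 without SGC707 C), and summed with the readthrough row 0.24 (SE 0.18, adjusted p = 0.592 by edgeR), so the sign turned with the treatment of shared reads. Among the 46 tested rows named as readthrough genes, 4 (8.70%) had 1 SGC707 library at least 20 times below the next, against 0.328% of all tested genes. A DMSO library of that kind occurred in 1 row (2.17%), against 0.0574%. SENP3-EIF4A1 is itself 1 of the 4, so the share is a description. The rest were ARPIN-AP3S2, RAB4B-EGLN2 and TMED7-TICAM2, and the low library was SGC707 C in all 4.

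**Figure D4:**
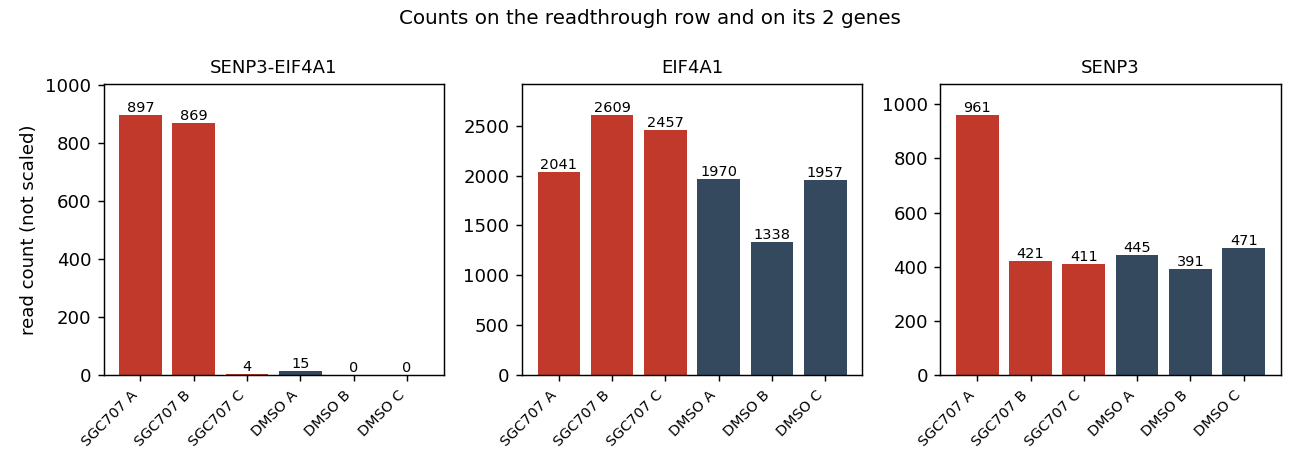
Read counts as deposited, not scaled between libraries (vertical axes, from 0), on SENP3-EIF4A1, EIF4A1 and SENP3 in the 3 SGC707 and the 3 DMSO libraries. The readthrough row holds 897 and 869 counts in SGC707 A and B and at most 15 in the other 4 libraries, while EIF4A1 holds 1338 to 2609 throughout.

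In the last steps of initiation, EIF5 (chromosome 14, 103333544 to 103345025), which encodes the activator of GTP hydrolysis by eIF2, stood at 75.6, 82.5 and 114 normalised CPM with SGC707, against 176, 143 and 114 with DMSO. The C libraries of both groups met at the same level and the others lay far apart (log2 fold change -0.67, SE 0.22, adjusted p = 0.298 by edgeR; -0.87 and adjusted p = 0.0359 without SGC707 C). With the GC and length correction added, EIF5 was not called without SGC707 C. EIF5B (chromosome 2, 99337353 to 99401326), the GTPase that joins the subunits, stood at 146, 148 and 285 with SGC707, against 269.8, 308 and 225 with DMSO. SGC707 C lay among the DMSO libraries, and the log2 fold change of -0.47 (SE 0.28, adjusted p = 0.512 by edgeR) became -0.87 without it (adjusted p = 0.0277 by edgeR). EIF6, which keeps the ribosomal subunits apart, stood at 48.0, 43.0 and 27.9 with SGC707, against 28.4, 27.5 and 35.3 with DMSO (0.38, SE 0.23, adjusted p = 0.524 by edgeR). There too SGC707 C lay with the DMSO libraries, and without it the log2 fold change was 0.58.

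eIF5A, which carries the modified residue hypusine and relieves stalled ribosomes, is encoded by EIF5A and EIF5A2. EIF5A (chromosome 17, 7306999 to 7312463) stood at 144, 135 and 91.4 normalised CPM with SGC707, against 107, 108 and 116 with DMSO (log2 fold change 0.16, SE 0.19, adjusted p = 0.750 by edgeR). EIF5A2 stood at 4.95, 5.85 and 10.1 with SGC707, against 7.82, 5.28 and 6.93 with DMSO (0.05, SE 0.33), and the close copy EIF5AL1 at 16.0, 19.2 and 16.8 with SGC707, against 14.1, 17.99 and 16.9 with DMSO (0.09, SE 0.19). All 3 had overlapping groups. Without SGC707 C, EIF5A stood at 0.34 and EIF5A2 at -0.31. EIF5A shares 10.3% of its windows of 100 bases with EIF5AL1, and the 2 rows summed gave 0.15 (SE 0.18, adjusted p = 0.750 by edgeR), and 0.31 without SGC707 C.

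Ratios between paralogs within a library do not depend on scaling, and none of 8 such ratios separated the groups. They were not corrected for GC content, in which the paralogs can differ, as EIF4G2 (43.1%) and EIF4G1 (57.4%) do. The log2 count ratio of EIF4A2 to EIF4A1 was 0.55, 0.31 and 0.45 with SGC707, against -0.10, 0.39 and 0.16 with DMSO, a mean difference of 0.29 (two-sided exact permutation p = 0.2, adjusted p = 0.533 over the 8 pairs). That of EIF4E2 to EIF4E was 0.23, 0.27 and -0.46 with SGC707, against -0.63, -0.48 and -0.42 with DMSO, a difference of 0.52 (exact permutation p = 0.2, adjusted p = 0.533). SGC707 A and B lay above all DMSO libraries there, and SGC707 C among them. For EIF4G2 to EIF4G1 the difference was 0.32, for EIF1B to EIF1 0.49, and for EIF4G3 to EIF4G1 (-0.07), EIF5A2 to EIF5A (-0.13) and EIF2AK3 to EIF2AK4 (0.01) it was smaller, with exact permutation p from 0.3 to 1. SGC707 C stood apart in the ratio of EIF4G2 to EIF4G1, at 1.24 against 0.50 and 0.55 in SGC707 A and B. DMSO B stood apart in that of EIF1B to EIF1, at -2.97 against -1.79 and -1.80 in DMSO A and C. With 0.5 added to each count, SENP3-EIF4A1 to EIF4A1 differed by 6.15 (exact permutation p = 0.2). Groups of 3 against 3 cannot reach a two-sided exact p below 0.1.

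Across 51 rows, leaving out the readthrough row, the log2 ratio of SGC707 C to the mean of SGC707 A and B had a Spearman correlation of -0.68 (Pearson -0.69) with transcript GC content, which ran from 34.3% to 60.3%. These rows share libraries and depth, so the value is a description. Of 21 rows under 45% GC, 20 were higher in SGC707 C than in the mean of the other 2, against 14 of 30 rows at 45% or above. The rows farthest up were EIF2A (1.11), EIF5B (0.95) and EIF5A2 (0.90), and the rows farthest down EIF3K (-0.76), EIF6 (-0.71) and EIF3G (-0.62). EIF1AD, at 49.4% GC, stood at -0.11. Of the 14 rows called without SGC707 C, 9 had overlapping groups when it was kept.

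**Figure D5:**
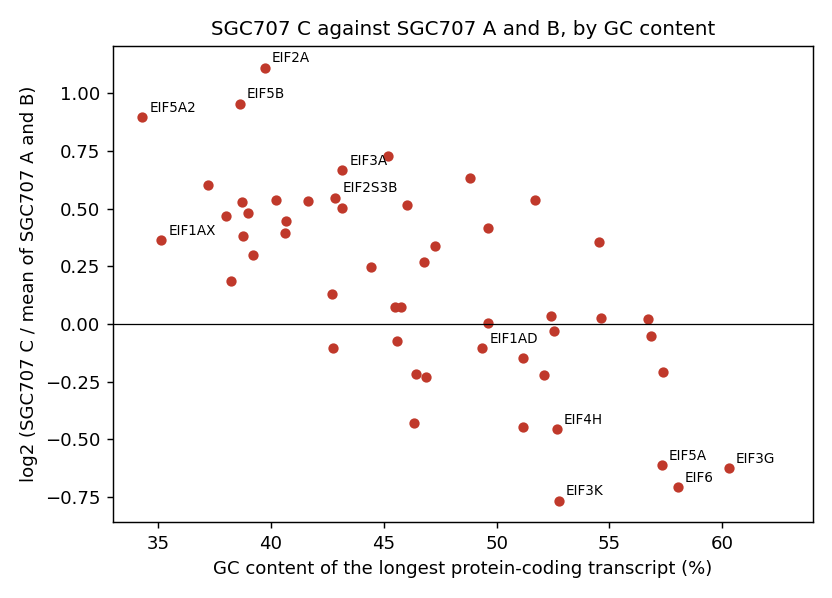
GC content of the longest protein-coding transcript (horizontal axis, %) against the log2 ratio of normalised CPM in SGC707 C to the mean of SGC707 A and B (vertical axis) for 51 initiation factor rows. Rows of low GC content such as EIF2A and EIF5B lie above 0 and rows of high GC content such as EIF6 and EIF3G below it, with a Spearman correlation of -0.68.

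A list of 42 other translation genes held EIF4EBP3, which is also 1 of the 55 rows and was not tested. The remaining 41 were tested, EIF4EBP1 and EIF4EBP2 among them, with 24 positive and 17 negative log2 fold changes and a median of 0.04. At an edgeR adjusted p under 0.05 the count was 0, and at an unadjusted p under 0.05 there were 4 higher and 0 lower genes, or 9.76%, against 12.8% of all tested genes (5.62% higher and 7.13% lower). MCTS1 (chromosome X, 120594010 to 120621074), which encodes a partner of DENR in a reinitiation factor related to eIF2D, stood at 23.9, 26.7 and 23.5 normalised CPM with SGC707, against 12.8, 11.6 and 15.7 with DMSO. The groups lay far apart (log2 fold change 0.89, SE 0.19, adjusted p = 0.190 by edgeR; 0.0303 without SGC707 C). The elongation factor gene EEF1A1 stood at 1199, 1086 and 1340.4 with SGC707, all above the 603, 654 and 957 with DMSO (0.71, SE 0.20, adjusted p = 0.263 by edgeR), and it has many processed pseudogenes. PPP1R15B, which encodes the constitutive partner of the eIF2 phosphatase, stood at 113, 114 and 123 with SGC707, against 81.1, 87.4 and 97.2 with DMSO (0.40, SE 0.14, adjusted p = 0.308 by edgeR). BZW1 (0.53), a mimic of eIF5, and PAIP2B (0.55), an inhibitor of the poly(A)-binding protein, followed, with edgeR adjusted p of 0.317 and 0.418. Without SGC707 C, 3 genes of the list passed higher and 0 lower, or 7.32%, against 9.26% of all tested genes.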

How the data were processed

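RNA from SH-SY5Y cells given SGC707 or DMSO was sequenced after mRNA isolation and library preparation, as paired reads, per the labels' protocols. The authors deposited whole-number read counts per gene symbol, not scaled between libraries. HISAT2, StringTie and GRCh38 are named per the submitters' processing notes; versions, annotation, strand setting and treatment of shared reads are not stated there, so overlapping genes and close copies have uncertain counts. Counts were fitted in R 4.3.3 with edgeR 4.0.16 (filterByExpr, TMM, robust glmQLFit and glmQLFTest, no covariate), with Benjamini-Hochberg adjustment over the 12196 genes tested and a threshold of 0.05. Each SE is the absolute log2 fold change over the root of its F statistic. Normalised CPM uses TMM-scaled totals. DESeq2 1.42.0 and limma 3.58.1 served as alternatives. Members, lists and alternatives were chosen with earlier results of these data known. Named rows are the 3 with the smallest p and the one with the highest mean in each role, and 5 other translation genes; EIF2S1, EIF2S2, EIF2A, EIF2AK3, EIF1, EIF4A3, EIF3K and rows listed by their calls or levels were named after their values were seen. Summed rows, and the GC and length correction without SGC707 C, were added after seeing the data. Symbols matched GENCODE 29 directly for 19294 rows and by a synonym for 296, with 20 unmatched. No replicate pair agreed within sampling noise (chi-square at least 9.87 per degree of freedom). A count of 0 allows up to 3 counts.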

Additional observations from a re-analysis of the deposited data

How the results depend on the processing

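With TMM scaling and all libraries, 1 gene was called higher and 2 lower over all genes, and 0 initiation factor rows in either direction. Over all genes, higher and lower calls were 2574 and 31 with library totals only, 47 and 241 with DESeq2, 1596 and 1855 with limma-voom and library weights, 9 and 53 with the GC and length correction, 292 and 637 with that correction and without SGC707 C, and 0 and 0 at an adjusted p under 0.01. Without a filter on low counts 5 genes were lower. Leaving out 1 library in turn gave 0 to 462 higher and 0 to 685 lower genes, the highest both without SGC707 C. With the replicate block the counts were 0 and 0 over all genes and 0 among initiation factor rows. Deviations from the group means correlated at 0.0795, -0.0228 and 0.0998 between same-letter libraries. With so few libraries these values cannot show whether a letter marks a shared culture or batch.

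Of the 52 initiation factor rows, 18 were called higher with library totals only, which called 2574 of 12196 genes higher. With limma-voom 8 rows were called higher, against 1596 of 12196 genes. With the GC and length correction and without SGC707 C 5 rows were called higher, against 292 of 12392 genes. Rows called lower numbered 1 with DESeq2 and 16 with limma-voom, which called 1855 of 12196 genes lower. They numbered 1 with the GC and length correction (53 of 12196 genes) and 5 with that correction and without SGC707 C (637 of 12392 genes). Leaving out 1 library in turn gave 0 to 5 higher and 0 to 9 lower rows. Other translation genes called higher numbered 15 with library totals only, 1 with DESeq2 (MCTS1), 9 with limma-voom, 2 with the GC and length correction and without SGC707 C, and 0 to 3 with 1 library left out. Those called lower numbered 3 with limma-voom (LARP1, PABPC1 and CDC123) and 3 with the correction and without SGC707 C (CDC123, EEF1A2 and PABPC1). The causes were not tested.

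The median of initiation factor rows was 0.58 with library totals only, where that of all tested genes was 0.69, and ran from -0.16 to 0.035 with 1 library left out. With library totals only 49 of 52 rows were positive, 25 of them with a turned sign. Among rows named by rule these were EIF2AK1 0.25, EIF2AK2 0.50, EIF2AK4 0.55, EIF2B2 0.33, EIF3A 0.26, EIF3C 0.42, EIF3CL 0.26, EIF3D 0.28, EIF4E 0.60, EIF4E3 0.54, EIF4ENIF1 0.41, EIF4G1 0.46, EIF4G3 0.37 and EIF5B 0.16. With 1 library left out the range crossed 0 in 14 of 52 rows, among those named by rule for EIF4B (-0.017 to 0.44), EIF4E (-0.22 to 0.11), EIF4E3 (-0.33 to 0.033), EIF4G2 (-0.077 to 0.23), EIF5A2 (-0.31 to 0.25) and EIF5AL1 (-0.013 to 0.16). It also did for the ratios EIF4G3 to EIF4G1 (-0.32 to 0.050), EIF5A2 to EIF5A (-0.63 to 0.21) and EIF2AK3 to EIF2AK4 (-0.043 to 0.077). With limma-voom EIF4G2 stood at -0.0026 and EIF5A2 at -0.24. With the GC and length correction EIF5A2 stood at -0.024, and at -0.13 also without SGC707 C. EIF4A1 summed with SENP3-EIF4A1 stood at 0.24. The 33 rows named by rule kept their sign with RLE size factors, a stricter filter, no filter, DESeq2, the replicate block and without mitochondrial genes.

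Counts limit EIF2S3B, with 10 to 62 counts with SGC707 and 38 to 123 with DMSO, and the readthrough row, at 0 counts in 2 libraries. The smallest edgeR adjusted p among initiation factor rows was 0.163, so with 3 libraries a group a missed threshold does not show that levels were alike.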
